A study of Homo sapiens with 9 samples.

Results

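The axon guidance ligands and receptors are the Slits and their Robo receptors, the semaphorins with the plexins and neuropilins, the ephrins with the Eph receptors, and the netrins with UNC5 and DCC. They were taken by gene symbol from the deposited counts, which gave 69 of 58884 genes. The symbol rule uses no values, but it was chosen with earlier results of these data known. Of these, 47 passed the filter on low counts, as did 13055 genes in all, and 22 fell below it.

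RNA-seq was performed on the parental MDA-MB-231 line (Par), a human claudin-low breast cancer line, and on MDA-MB-231 LM2 and MDA-MB-231 BrM2, sub-populations that had been selected in vivo from it for growth in the lung and in the brain of mice. Each line had 3 libraries, from cells grown for 3 days as a monolayer in DMEM with 10% FBS. The sources used here name no drug and no introduced genetic change that separates the groups. Whether the lines differ genetically was not tested. The replicates of a line were different passages of the same line, not separate selections, so that p-values measure the spread between passages of 1 sub-population. Counts on genes totalled 19878879 to 23948742 per Par library, 23581487 to 24511786 per LM2 library and 14371858 to 22055215 per BrM2 library. Levels are given in CPM, the counts scaled to the TMM-normalised library size, in the order replicate 1, 2 and 3. At these depths 3 reads, taken here as the floor, correspond to 0.14 CPM in Par, 0.13 CPM in LM2 and 0.17 CPM in BrM2, and they cover counting error only.

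Guidance cues steer growing axons by attracting or repelling them, and the same molecules are used by many other tissues to control adhesion, migration and vessel growth. Slits are secreted repellents read by Robo receptors. Semaphorins are secreted or membrane-bound and are read by plexins, for which the neuropilins serve as co-receptors of most secreted class 3 semaphorins. Ephrins sit on the cell surface and bind Eph receptor tyrosine kinases on the neighbouring cell, with signals into both cells, and netrins are laminin-related proteins read by DCC, neogenin and the UNC5 family.

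Promoter sequence is shown for the ligand and receptors that were higher in both sub-populations or in BrM2 (SLIT2, ROBO1, ROBO2) and for the 3 members with the largest called falls in LM2 vs Par (SEMA5A, EPHB3, PLXNA4), so that their base composition can be set beside the levels below. Each run holds the 250 bases before a RefSeq transcription start (GRCh38.p14, the sequence of hg38), 5′ to 3′ on the strand of the gene. Capitals mark matches to 3 motifs on either strand, the GC box GGGCGG, the AP-1 site TGANTCA and the E-box CAGGTG. For ROBO1 and ROBO2 a pair of starts is shown, because the counts per gene do not tell which one was used. Inner and outer name their order among the starts shown. The RefSeq bounds of ROBO2 (from chr3:75906675) and of PLXNA4 (to chr7:132648688) lie further upstream, so other starts of these genes may be missing.

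SLIT2 (chr4:20251655-20251904, plus strand): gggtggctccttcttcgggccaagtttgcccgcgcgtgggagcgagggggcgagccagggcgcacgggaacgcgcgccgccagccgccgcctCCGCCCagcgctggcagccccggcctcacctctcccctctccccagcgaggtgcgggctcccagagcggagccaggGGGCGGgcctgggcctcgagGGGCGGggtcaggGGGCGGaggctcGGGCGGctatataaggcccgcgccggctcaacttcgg
ROBO1, inner start (chr3:79019460-79019709, minus strand): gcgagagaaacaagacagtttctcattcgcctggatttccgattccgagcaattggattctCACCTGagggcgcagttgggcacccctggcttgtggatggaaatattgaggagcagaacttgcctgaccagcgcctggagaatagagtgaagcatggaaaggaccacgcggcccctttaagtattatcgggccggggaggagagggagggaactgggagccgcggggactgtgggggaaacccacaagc
ROBO1, outer start (chr3:79767999-79768248, minus strand): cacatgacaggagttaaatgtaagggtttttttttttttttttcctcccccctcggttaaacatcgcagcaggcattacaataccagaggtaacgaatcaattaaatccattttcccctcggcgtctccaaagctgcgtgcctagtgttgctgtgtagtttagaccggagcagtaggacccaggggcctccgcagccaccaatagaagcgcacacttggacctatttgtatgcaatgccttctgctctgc
ROBO2, inner start (chr3:77039849-77040098, plus strand): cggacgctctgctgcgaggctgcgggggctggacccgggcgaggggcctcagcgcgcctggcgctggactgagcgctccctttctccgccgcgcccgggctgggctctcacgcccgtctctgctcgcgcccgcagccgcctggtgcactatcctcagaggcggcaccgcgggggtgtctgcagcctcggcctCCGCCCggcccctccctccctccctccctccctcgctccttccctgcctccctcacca
ROBO2, outer start (chr3:76310630-76310879, plus strand): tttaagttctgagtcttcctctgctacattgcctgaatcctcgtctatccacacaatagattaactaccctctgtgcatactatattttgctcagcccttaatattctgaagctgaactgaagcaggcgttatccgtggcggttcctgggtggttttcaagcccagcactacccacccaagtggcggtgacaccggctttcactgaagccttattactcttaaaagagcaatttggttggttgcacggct
PLXNA4 (chr7:132576471-132576720, minus strand): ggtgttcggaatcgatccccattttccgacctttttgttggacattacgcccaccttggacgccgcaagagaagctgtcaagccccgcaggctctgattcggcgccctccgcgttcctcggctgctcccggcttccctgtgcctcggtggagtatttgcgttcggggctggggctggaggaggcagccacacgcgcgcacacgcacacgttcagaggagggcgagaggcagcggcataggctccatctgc
SEMA5A (chr5:9546076-9546325, minus strand): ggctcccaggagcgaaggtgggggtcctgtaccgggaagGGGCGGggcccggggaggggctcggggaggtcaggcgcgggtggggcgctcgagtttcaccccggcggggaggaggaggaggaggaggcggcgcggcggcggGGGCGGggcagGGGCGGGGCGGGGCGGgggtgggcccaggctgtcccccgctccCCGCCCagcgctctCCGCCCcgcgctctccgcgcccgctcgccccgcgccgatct
EPHB3 (chr3:184561535-184561784, plus strand): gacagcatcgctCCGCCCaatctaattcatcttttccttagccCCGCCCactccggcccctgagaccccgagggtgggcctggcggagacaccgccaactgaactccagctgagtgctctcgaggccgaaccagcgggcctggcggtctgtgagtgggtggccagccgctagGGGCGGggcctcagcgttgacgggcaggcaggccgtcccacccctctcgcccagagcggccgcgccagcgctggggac

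The windows of SLIT2 and SEMA5A held 5 and 7 GC boxes, overlapping ones included, and those of EPHB3 held 3. The inner start of ROBO2 held 1. The outer starts of ROBO1 and ROBO2 and the PLXNA4 start shown had none of the 3 motifs, and the inner start of ROBO1 held 1 E-box and no GC box. The GC content of the windows shown ran from 46.8% at the outer ROBO2 start to 82.0% at SEMA5A. Over the 91 windows found for 59 members, 70.3% held a GC box, against 42.6% of all 35116 RefSeq windows. The AP-1 site was found in 1.1% against 6.6%, and the E-box in 16.5% against 17.5%. A match is a description of the letters only.

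The libraries of 1 replicate number varied together across the lines, but numbers 2 and 3 were not clearly separated. Replicate 1 stood apart from the others in all 3 lines. Of the 47 tested members, 11 had their lowest CPM in replicate 1 of every line and 16 their highest. The difference between replicate 1 and the others rose with the GC content of the exons of a gene's longest transcript. The Spearman correlation was 0.78 across these 47 genes and 0.8 across 12989 tested genes, which is a description, since all points share the same libraries. SEMA3C and SEMA3D, with 37.1% and 36.9% GC, were lower in replicate 1 by 1.71 and 1.75 on the log2 scale in the mean of the lines. EPHA2, with 60.3% GC, was higher in replicate 1 by 0.74. For this reason each p-value from the model of the 3 lines is followed, where it changes the call, by the p-value from a fit that also holds the replicate number (the block).

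**Figure D1:**
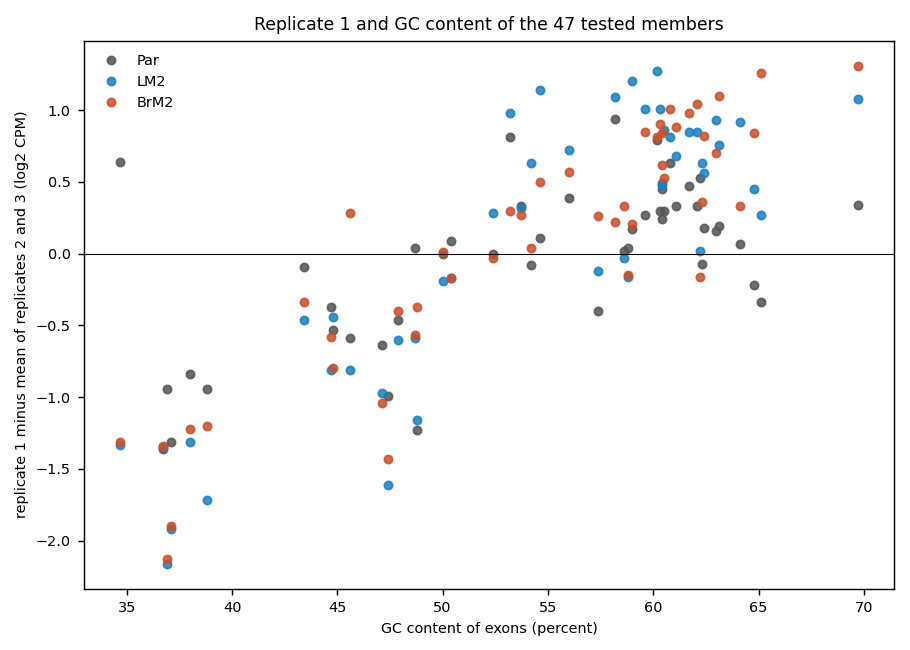
The difference between replicate 1 and the mean of replicates 2 and 3 (log2 CPM, vertical) is plotted against the GC content of the exons of the longest transcript (percent, horizontal) for the 47 tested members, with 1 point per gene and line. Points of all 3 lines lie low at the left, where SEMA3C and SEMA3D stand, and mostly above 0 at the right.

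Against Par, 12 of the 47 tested members passed the threshold of 0.05 on the adjusted p in LM2, beside 8.69% of the 13055 genes tested. All p-values here come from the quasi-likelihood test of edgeR and were adjusted by Benjamini-Hochberg. Of the 12, 4 were higher and 8 lower, beside 4.17% and 4.52% of all genes. In BrM2 16 members passed, beside 13.3%, of which 6 were higher and 10 lower, beside 6.25% and 7.02%. Directly between the sub-populations 6 members passed, beside 8.1%, with 4 higher and 2 lower in BrM2, beside 4.11% and 3.99%. Against Par, 9 members passed in both sub-populations, beside 5.2% of all genes, and both comparisons share the Par libraries.

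With the replicate block 27 members passed in LM2, 9 higher and 18 lower, beside 34.5% of all genes (15.5% higher and 19.1% lower). In BrM2 34 passed, 13 higher and 21 lower, beside 42.7% (19.5% and 23.2%). Between BrM2 and LM2 24 passed, 14 higher and 10 lower, beside 37.5% (17.8% and 19.7%). The shares of the members called were 25.5%, 34% and 12.8% without the block and 57.4%, 72.3% and 51.1% with it.

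The filter keeps a gene that is high in a single line, and passing in this way favours a difference between the lines. EPHB3, SEMA5A and UNC5B passed it through Par only, SEMA3E through LM2 only, and ROBO2, SEMA3G and SEMA6A through BrM2 only, and these 7 are all among the genes called. Among the 37 members over the filter's threshold in all 3 lines, 9, 10 and 4 were called in these 3 comparisons in turn, beside 5.66%, 9.5% and 5.34% of the 11525 genes over it in all lines. Of the 47, 20 were called in at least 1 comparison, 20 more only with the block, and 7 in neither. The share of all genes was not computed for these unions, so they only describe the list. With the block 34.5% to 42.7% of all genes passed in a single comparison. The libraries of the lines did not overlap for 19 members between LM2 and Par, 26 between BrM2 and Par and 16 between the sub-populations, beside 25.2%, 31.3% and 23.1% of all genes. When each of the 9 libraries was left out in turn, 6 of the 12 calls in LM2 vs Par held in all 9 fits (EPHB3, NRP2, PLXNA4, ROBO1, SEMA3B and SEMA5A), 8 of 16 in BrM2 vs Par (EPHB3, PLXNA4, PLXNB1, ROBO1, ROBO2, SEMA4D, SEMA5A and SLIT2) and 2 of 6 in BrM2 vs LM2 (NTN4 and ROBO2). Of the others in LM2 vs Par, PLXNA3 held in 8 of the 9 fits, SLIT2 in 6, PLXNB3, SEMA3E and SEMA4D in 2 and SEMA7A in 1. In BrM2 vs Par, EFNB2 held in 7, PLXNA3 in 6, NTN4 in 4, SEMA3B and SEMA3G in 3, NRP2 and UNC5B in 2 and SEMA6A in 1. In BrM2 vs LM2, PLXNA4, PLXNB1 and SEMA3G held in 3 and EFNA1 in 1.

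**Figure D2:**
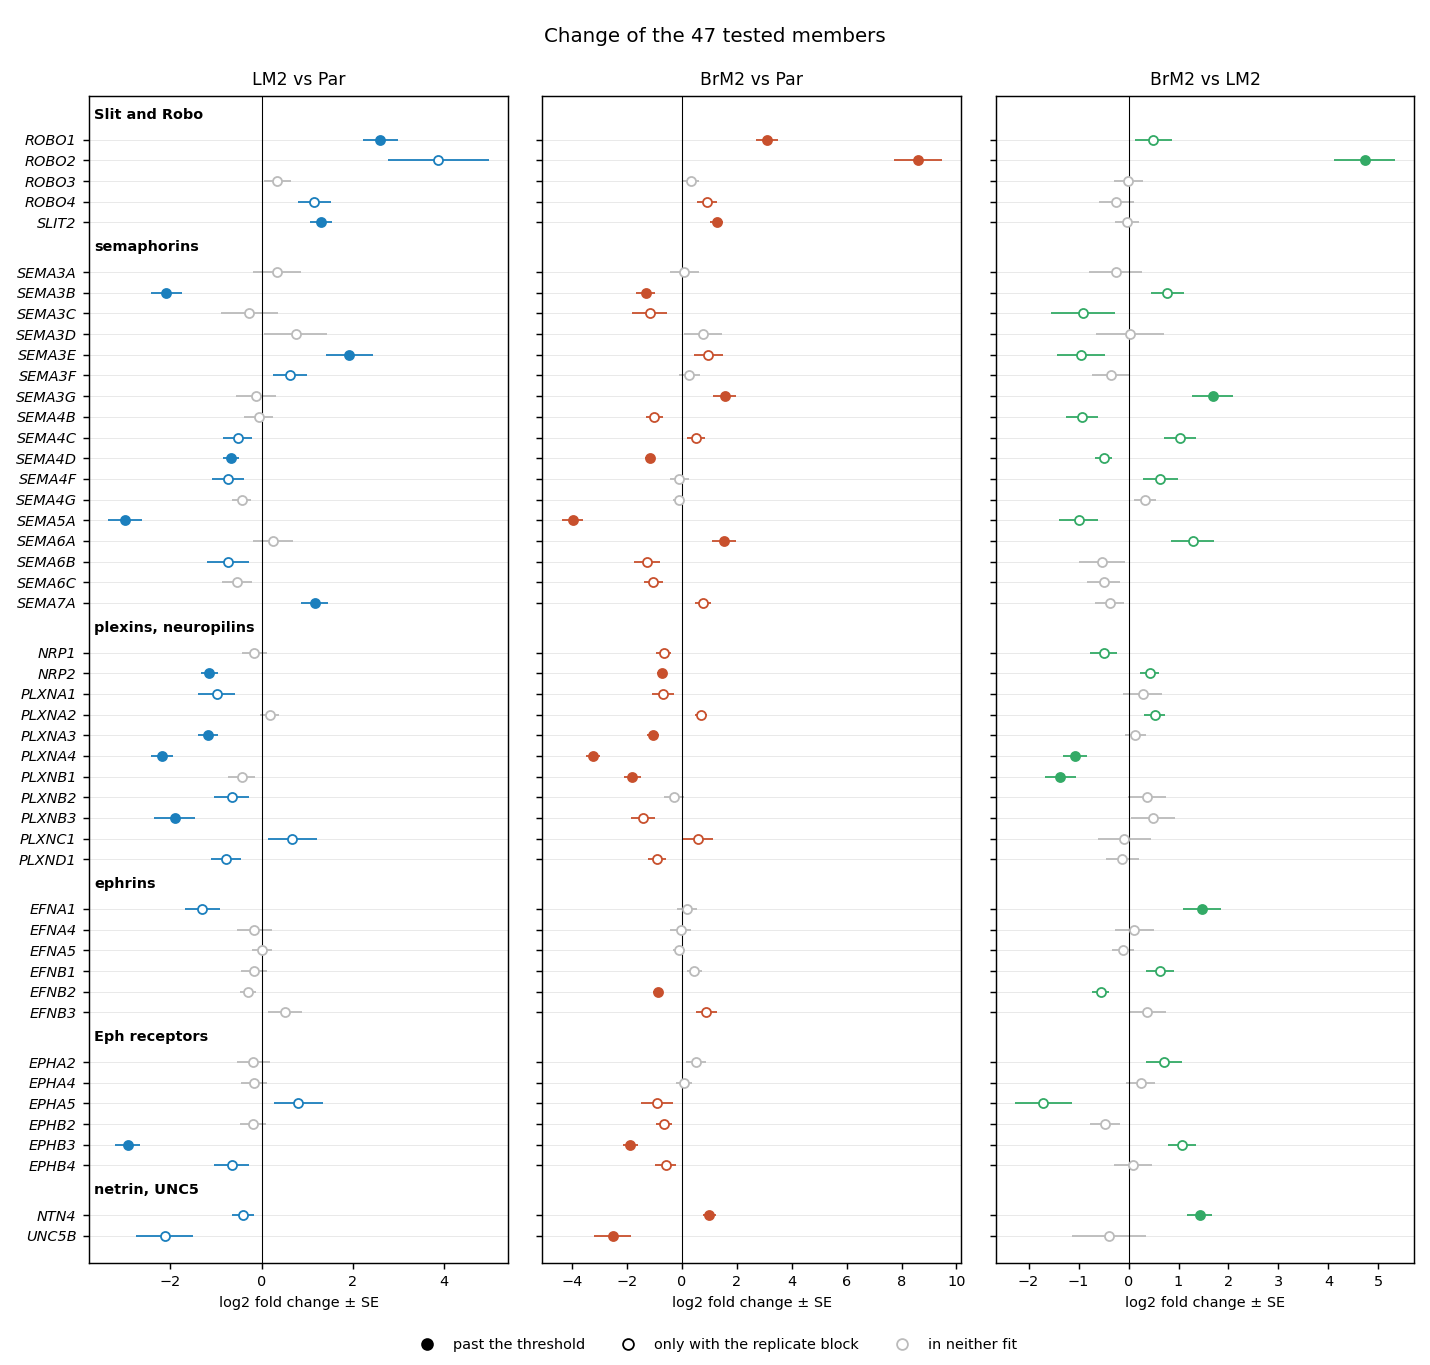
The log2 fold change (horizontal, ± SE) of each of the 47 tested members is plotted by family for LM2 vs Par, BrM2 vs Par and BrM2 vs LM2, whose axes differ. Filled points passed the threshold, open coloured points passed it only with the replicate block and grey points passed in neither. All 5 Slit and Robo genes lie to the right of 0 in the comparisons with Par, and 9 of the 11 plexins and neuropilins lie to the left. The fitted value of ROBO2 against Par depends on the model, since Par had 1 read in all.

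Among the Slit and Robo genes, those that passed the test were all higher than in Par. SLIT2, a secreted repellent that was nearly the only Slit in these cells, and ROBO1, the broadly expressed Slit receptor, rose in LM2 and in BrM2, and ROBO2, the second neuronal Slit receptor, was read almost only in BrM2. Of the 5 tested genes of the group, 2 rose in LM2 and 3 in BrM2 (edgeR), beside 4.17% and 6.25% of all genes, and none fell. The median log2 fold change was 1.29 and 1.26 against 0.01 and -0.02 over all genes. With the block 4 rose in each, beside 15.5% of all genes in LM2 and 19.5% in BrM2.

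SLIT2 stood at 24.6, 24.1 and 24.0 CPM in Par, at 44.5, 66.1 and 67.6 in LM2 and at 43.7, 70.5 and 59.7 in BrM2. All libraries of both sub-populations lay above all Par libraries, and those of LM2 and BrM2 overlapped. The log2 fold change was 1.29 ± 0.24 (SE) in LM2 (adjusted p = 0.0108) and 1.26 ± 0.24 in BrM2 (adjusted p = 0.00887). Between BrM2 and LM2 it was -0.03 ± 0.24, with an adjusted p of 0.961 that does not show the levels to be alike. SLIT1 was counted at 3 to 9 reads in every library, and SLIT3 had 0 reads in all 9.

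ROBO1 had 5.52, 7.98 and 9.35 CPM in Par, 28.1, 53.0 and 57.7 in LM2 and 38.2, 76.9 and 80.2 in BrM2. Replicate 1 was the lowest library of each line, yet the lowest library of LM2 was above the highest of Par. The increase was 6.07-fold in LM2 (log2 2.6 ± 0.39, adjusted p = 0.00393) and 8.54-fold in BrM2 (3.09 ± 0.40, adjusted p = 0.00122). BrM2 was above LM2 at every replicate number. That difference of 0.49 ± 0.37 did not pass without the block (adjusted p = 0.529) and passed with it (0.49 ± 0.12, adjusted p = 0.0108).

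ROBO2 was counted with 1, 0 and 0 reads in Par, 2, 12 and 8 in LM2 and 55, 205 and 241 in BrM2. In CPM the BrM2 libraries had 4.06, 9.05 and 11.6 and the LM2 libraries 0.0994, 0.490 and 0.306, with no overlap between any lines. Against the floor of Par, BrM2 was at least 58.6-fold higher (adjusted p = 0.000358). BrM2 exceeded LM2 by 4.73 ± 0.61 on the log2 scale (adjusted p = 0.00185), the largest difference between the sub-populations among the 47 tested members. LM2 itself was at least 2.13-fold above the floor of Par in its mean, 1 of its libraries being under the floor, and passed only with the block (adjusted p = 0.0692 without it and 0.00768 with it).

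ROBO4, a Robo receptor best known from endothelial cells, was at 27.9, 24.7 and 21.8 CPM in Par, 82.9, 46.6 and 36.2 in LM2 and 66.1, 36.7 and 36.6 in BrM2. All libraries of the sub-populations were above those of Par, and here replicate 1 was the highest of each line. The log2 differences of 1.15 ± 0.36 in LM2 and 0.91 ± 0.35 in BrM2 missed the threshold (adjusted p = 0.0876 and 0.147), and both passed with the block (0.000608 and 0.00194). Of 10 endothelial markers, 3 were over the floor in all libraries of Par and 5 in those of LM2 and of BrM2, and CLDN5 and EMCN were at or under it in all 3 lines. TIE1 and FLT1 were at or under it in Par and at 2.21 to 4.8 and 1.48 to 1.87 CPM in BrM2, and ESAM was at 78 to 105 CPM in Par, 55.4 to 116 in LM2 and 133 to 199 in BrM2. PECAM1 and EGFL7 went the other way, with overlapping ranges. PECAM1 was at 3.1 to 7.19 CPM in Par and 2.88 to 3.69 in BrM2, and EGFL7 at 4.71 to 12.7 and 1.15 to 6.57. The summed level of the list was 90.4 to 121 CPM in Par, 62.8 to 130 in LM2 and 143 to 216 in BrM2. The part of this list in the level of ROBO4 was not tested. ROBO3, a divergent Robo of commissural axons, was called in no comparison with either model, at 14.5 to 29.7 CPM over the 9 libraries.

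Per kilobase of exon, the unit in which genes can be set side by side, the summed Robo level was 6.84 ± 0.572 CPM per kb in Par, 15.6 ± 3.02 in LM2 and 16.4 ± 1.35 in BrM2 (SD, n = 3). ROBO4 held the largest share of that sum in every line in the mean, from 54.7% ± 2.6 in Par to 42.1% ± 12 in BrM2. ROBO1 held 10.3% ± 3.4 in Par, 28.7% ± 14 in LM2 and 36.7% ± 15 in BrM2. ROBO3 went from 35.1% ± 1.5 in Par to 18.1% ± 4.8 in BrM2, while its own level was 2.40 ± 0.288 and 3.01 ± 1.07 CPM per kb. The SDs of the sub-populations are wide because ROBO1 and ROBO4 moved in opposite directions between replicate 1 and the others. SLIT2 made up 99.0% to 99.4% of the Slit sum in the mean of each line.

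**Figure D3:**
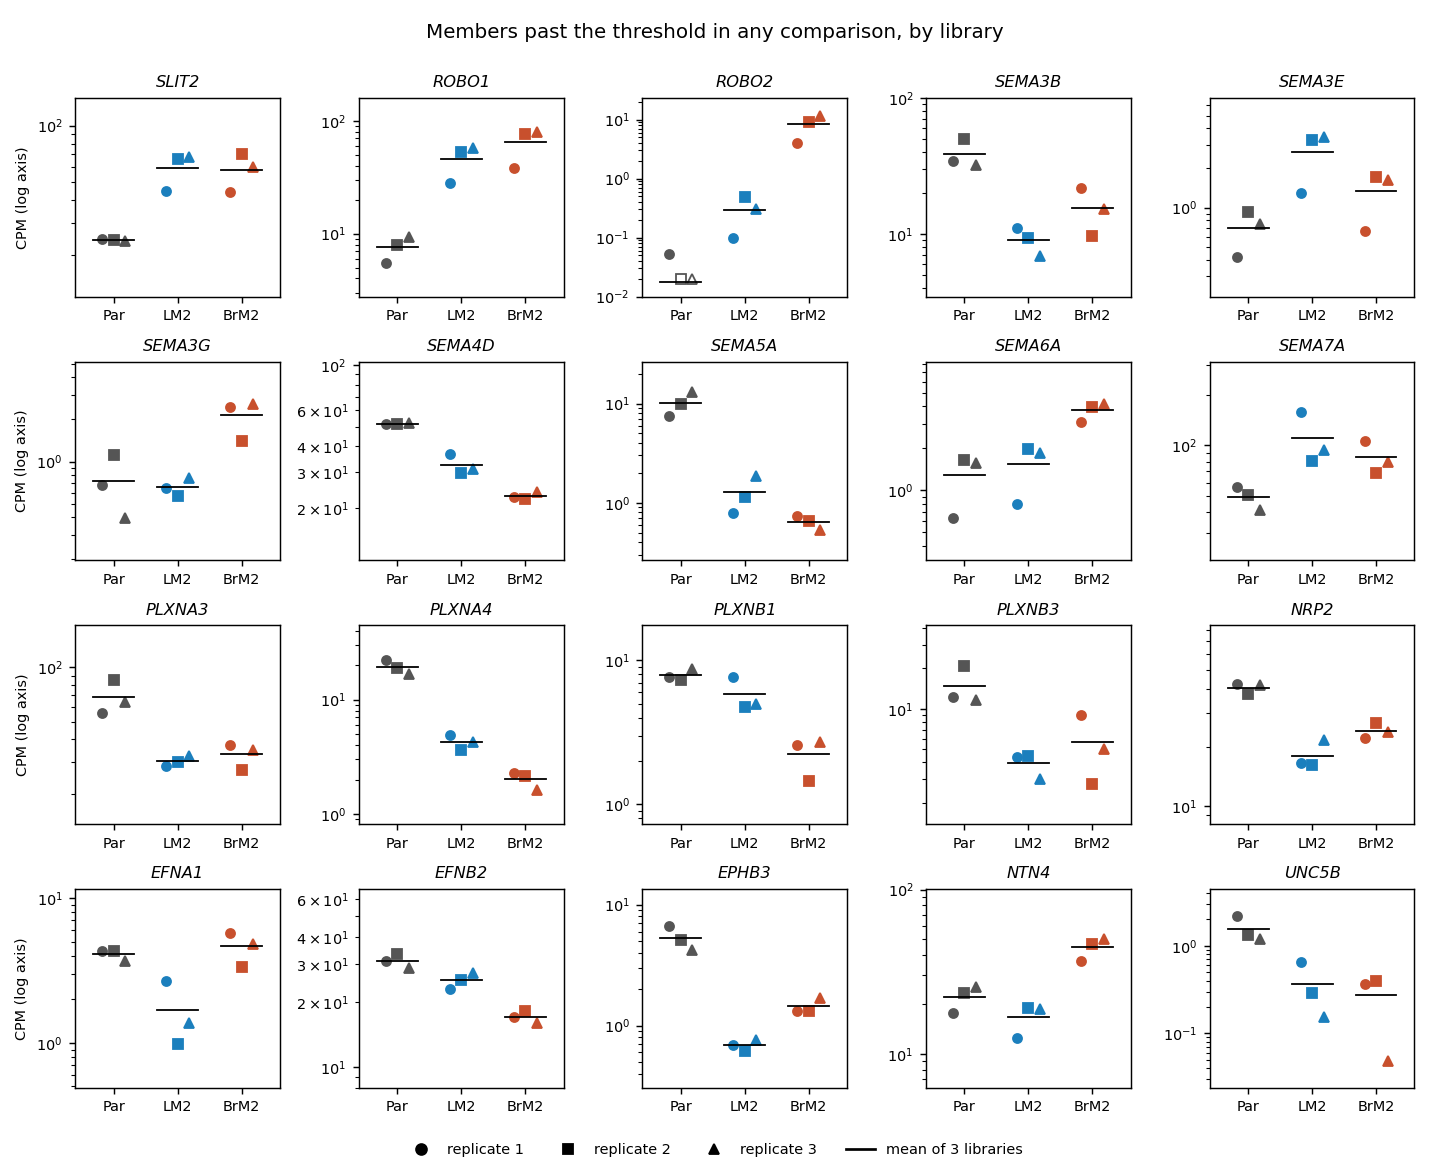
CPM in every library (vertical, log axis, a different range in each panel) of the 20 members called in any comparison, by line, with the replicate marked by shape and the mean of 3 libraries by a bar. Open symbols in the ROBO2 panel are Par libraries with 0 reads, drawn at the lower edge. SLIT2 and ROBO1 stand above Par in all LM2 and BrM2 libraries, and PLXNA4, SEMA5A and EPHB3 below it in all of them.

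Among the 17 tested semaphorins, 2 rose and 3 fell in LM2 and 2 rose and 3 fell in BrM2 (edgeR). Of all genes, 4.17% rose and 4.52% fell in LM2 and 6.25% rose and 7.02% fell in BrM2. The medians of the semaphorins were -0.27 and -0.10 on the log2 scale. The fallers were the same in both comparisons, SEMA3B, SEMA4D and SEMA5A, while the risers differed by name. Since the comparisons share the Par libraries, the values below are given side by side for each. With the block 3 rose and 6 fell in LM2, beside 15.5% and 19.1% of all genes. In BrM2 5 rose and 7 fell with the block, beside 19.5% and 23.2%.

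SEMA5A, a transmembrane semaphorin with thrombospondin repeats, showed the largest fall against Par of the 47 tested members in both sub-populations. It went from 7.57, 9.82 and 13.2 CPM in Par to 0.795, 1.14 and 1.88 in LM2 and 0.738, 0.662 and 0.527 in BrM2. Every library of the sub-populations was below every Par library. The fall was 7.95-fold in LM2 (log2 -2.99 ± 0.37, adjusted p = 0.00128) and 15.9-fold in BrM2 (-3.99 ± 0.40, adjusted p = 0.000312). BrM2 was below LM2 by 1 ± 0.39, which passed only with the block (adjusted p = 0.184 without it and 0.0322 with it).

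SEMA4D, a membrane semaphorin that plexin-B1 reads, was at 51.5, 51.3 and 51.9 CPM in Par, 36.7, 29.7 and 31.0 in LM2 and 22.7, 22.2 and 24.0 in BrM2. The 3 lines did not overlap and formed a descending order from Par to BrM2. The log2 change was -0.67 ± 0.17 in LM2 (adjusted p = 0.0395) and -1.17 ± 0.17 in BrM2 (adjusted p = 0.00212), and that between BrM2 and LM2 was -0.50 ± 0.17, past the threshold only with the block (adjusted p = 0.120 without it and 0.0100 with it). The LM2 call was lost without any 1 of 7 of the 9 libraries, with adjusted p up to 0.17, and with the size factors of DESeq2, with no filter on low counts and with edgeR's own filter.

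SEMA3B, a secreted class 3 semaphorin, had 34.5, 50.1 and 32.5 CPM in Par, 11.1, 9.38 and 6.97 in LM2 and 21.9, 9.71 and 15.4 in BrM2. No library of a sub-population reached the Par range. Its log2 change was -2.09 ± 0.34 in LM2 (adjusted p = 0.00576) and -1.32 ± 0.34 in BrM2 (adjusted p = 0.0319).

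SEMA7A, a GPI-anchored semaphorin that binds integrins and plexin-C1, rose in LM2. It was at 56.5, 50.6 and 41.3 CPM in Par, 158, 80.7 and 93.9 in LM2 and 107, 68.1 and 80.2 in BrM2, so that both sub-populations lay above Par in every library and overlapped each other. The log2 change was 1.16 ± 0.30 in LM2 (adjusted p = 0.0431). In BrM2 it was 0.78 ± 0.29, which passed with the block only (adjusted p = 0.130 without it and 0.00228 with it). Among the semaphorins, SEMA7A held 15.3% ± 2.5 of the summed level per kilobase in Par, 34.6% ± 8.5 in LM2 and 33.6% ± 2.8 in BrM2 (SD, n = 3), the largest share in both sub-populations.

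SEMA3E, which binds plexin-D1 without a neuropilin, rose in LM2 from 0.420, 0.919 and 0.747 CPM to 1.29, 3.26 and 3.41, with 0.664, 1.72 and 1.63 in BrM2. The lowest LM2 library was above the highest Par library, and BrM2 overlapped both lines. The log2 change of 1.92 ± 0.51 in LM2 lay just under the threshold (adjusted p = 0.0491), and that of 0.96 ± 0.52 in BrM2 passed with the block only (adjusted p = 0.306 without it and 0.0212 with it).

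SEMA3G, a secreted semaphorin read through neuropilin-2, and SEMA6A, a transmembrane ligand of plexin-A2 and plexin-A4, rose in BrM2. SEMA3G was at 0.683, 1.11 and 0.393 CPM in Par, 0.646, 0.571 and 0.766 in LM2 and 2.44, 1.41 and 2.59 in BrM2. BrM2 stood above both other lines in all libraries, by 1.56 ± 0.42 over Par (adjusted p = 0.0398) and by 1.68 ± 0.42 over LM2 (adjusted p = 0.0413) on the log2 scale. SEMA6A had 0.630, 1.65 and 1.57 CPM in Par, 0.795, 1.96 and 1.84 in LM2 and 3.1, 3.93 and 4.17 in BrM2. Its increase over Par was 1.53 ± 0.44 (adjusted p = 0.0497), and that over LM2, 1.28 ± 0.43, passed with the block only (adjusted p = 0.121 without it and 0.00259 with it).

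A further 5 semaphorins differed only with the block by a log2 change of at least 1 in size in a comparison. SEMA3C, a class 3 semaphorin and one of the most abundant per kilobase, was at 62.2, 142 and 167 CPM in Par, 35.9, 136 and 137 in LM2 and 19.2, 78.5 and 66.2 in BrM2. Replicate 1 was far below the others in each line, and the lines overlapped, but at each replicate number BrM2 was below Par. The log2 change of -1.18 ± 0.64 in BrM2 had an adjusted p of 0.314, and with the block it was -1.29 ± 0.16 (adjusted p = 9.62e-05).

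SEMA6B, a transmembrane semaphorin, was at 83.7, 83.6 and 52.1 CPM in Par, 66.5, 36.8 and 26.7 in LM2 and 49.2, 15.9 and 24.5 in BrM2. SEMA4B was at 71.3, 58.5 and 55 CPM in Par, 78.2, 50 and 47.8 in LM2 and 43.9, 20.3 and 27.7 in BrM2. Both were lower in all BrM2 libraries than in all Par libraries, with log2 changes with the block of -1.40 ± 0.25 for SEMA6B (adjusted p = 0.00129, and 0.118 without it) and -1.07 ± 0.16 for SEMA4B (adjusted p = 0.000305, and 0.0740 without it). SEMA6C had 3.20, 2.76 and 3.38 CPM in Par, 3.18, 1.75 and 1.53 in LM2 and 1.77, 1.54 and 1.25 in BrM2, again without overlap between BrM2 and Par (-1.05 ± 0.27 with the block, adjusted p = 0.00946, and 0.0749 without it). In LM2 SEMA6B also fell against Par with the block (-0.85 ± 0.25, adjusted p = 0.0211, and 0.443 without it), and SEMA4B and SEMA6C were called there with neither model.

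SEMA4C, a ligand of plexin-B2, went the other way between the sub-populations. It was at 41.2, 34.8 and 26.0 CPM in Par, 29.2, 23.0 and 18.7 in LM2 and 68.0, 32.0 and 45.3 in BrM2. All BrM2 libraries lay above those of LM2, by 1.01 ± 0.18 on the log2 scale with the block (adjusted p = 0.00151, and 0.0926 without it). Against Par, with the block only, it was -0.53 ± 0.18 in LM2 (adjusted p = 0.0408, and 0.431 without it). In BrM2 it was 0.48 ± 0.18 (adjusted p = 0.0479, and 0.388 without it). SEMA3F and SEMA4F passed with the block in at least 1 comparison by less than a log2 of 1, and SEMA3A, SEMA3D and SEMA4G in none. For SEMA4G, 22.9% of the exon length is shared with MRPL43 on the opposite strand, and the sources used here do not name the strand counted, so its counts are uncertain.

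Among the plexins and neuropilins, which read the semaphorins, the genes that passed the test were all lower than in Par. Of 11 tested genes none rose and 4 fell in LM2, and none rose and 4 fell in BrM2 (edgeR). Of all genes, 4.17% rose and 4.52% fell in LM2 and 6.25% rose and 7.02% fell in BrM2. The medians of the 11 genes were -0.78 and -0.73 on the log2 scale. With the block 1 rose and 7 fell in LM2, beside 15.5% and 19.1% of all genes. In BrM2 2 rose and 8 fell with the block, beside 19.5% and 23.2%. The summed plexin level was 102 ± 21.8 CPM per kb in Par, 56.5 ± 18.5 in LM2 and 67.7 ± 28.0 in BrM2 (SD, n = 3).

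PLXNA4, a plexin of sensory and sympathetic axons that works with neuropilins, fell most. It went from 22.3, 19.0 and 16.6 CPM in Par to 4.92, 3.59 and 4.25 in LM2 and 2.29, 2.16 and 1.63 in BrM2. The lines did not overlap, and the range within each was narrow. It was 4.53-fold lower in LM2 (log2 -2.18 ± 0.24, adjusted p = 0.000733) and 9.52-fold lower in BrM2 (-3.25 ± 0.25, adjusted p = 0.000122). BrM2 was also below LM2, with a log2 difference of -1.07 ± 0.24 (adjusted p = 0.0271), a call that was lost with no filter on low counts (adjusted p = 0.082) and held in 3 of the 9 fits that left out a library.

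PLXNA3 and NRP2 fell in both sub-populations. PLXNA3, an A-type plexin that pairs with neuropilin-2, was at 56.2, 85.2 and 64.4 CPM in Par, 28.6, 30.1 and 32.2 in LM2 and 37.0, 27.2 and 35.1 in BrM2, a log2 change of -1.18 ± 0.22 (adjusted p = 0.0101) and -1.05 ± 0.22 (adjusted p = 0.0126). NRP2, the co-receptor itself, had 42.1, 37.5 and 41.6 CPM in Par, 16.6, 16.2 and 21.7 in LM2 and 22.4, 26.6 and 24.0 in BrM2. The sub-populations were below Par in all libraries, and LM2 was below BrM2 in all of them. The log2 change of NRP2 was -1.15 ± 0.19 in LM2 (adjusted p = 0.00601) and -0.73 ± 0.19 in BrM2 (adjusted p = 0.0339). The BrM2 call was lost with no filter on low counts (adjusted p = 0.2) and held in 2 of the 9 fits that left out a library. The difference of BrM2 over LM2 of 0.42 ± 0.19 passed with the block only (adjusted p = 0.249 without it and 0.0377 with it).

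PLXNB1, the receptor of SEMA4D, fell in BrM2 and not detectably in LM2. Its CPM were 7.62, 7.26 and 8.76 in Par, 7.65, 4.77 and 5.02 in LM2 and 2.58, 1.46 and 2.73 in BrM2. The BrM2 libraries stood apart from both other lines. The log2 change was -1.81 ± 0.31 in BrM2 (adjusted p = 0.00530), -0.44 ± 0.30 in LM2 (adjusted p = 0.497) and -1.37 ± 0.31 between BrM2 and LM2 (adjusted p = 0.0275), the last of which tests the difference itself. PLXNB3 had 12.2, 20.9 and 11.6 CPM in Par, 4.42, 4.49 and 2.99 in LM2 and 9.08, 2.78 and 5.03 in BrM2. It fell in LM2 (-1.91 ± 0.44, adjusted p = 0.0290) and in BrM2 only with the block (-1.45 ± 0.36, adjusted p = 0.00733, and 0.0681 without it), but 20.4% of its exon length lies in SRPK3 on the same strand, so reads of both genes cannot be told apart there.

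The abundant plexins had wide ranges. PLXNA1, the most abundant per kilobase, was at 660, 680 and 405 CPM in Par, 414, 265 and 200 in LM2 and 537, 209 and 325 in BrM2. PLXNB2 was at 208, 231 and 144 CPM in Par, 169, 112 and 87.9 in LM2 and 245, 94.2 and 138 in BrM2. These ranges overlapped between all lines, and at every replicate number LM2 was below Par for both genes. With the block PLXNA1 fell by 1.04 ± 0.23 in LM2 (adjusted p = 0.00559, and 0.196 without it) and PLXNB2 fell by 0.71 ± 0.23 (adjusted p = 0.0337, and 0.409 without it) on the log2 scale. In BrM2 PLXNA1 was also below Par at every replicate number. It fell there by 0.75 ± 0.23 with the block (adjusted p = 0.0231, and 0.33 without it), and PLXNB2 was called there with neither model.

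PLXND1, the SEMA3E receptor, was at 111, 109 and 91.2 CPM in Par, 88.6, 46.5 and 46.5 in LM2 and 73.5, 36.9 and 55.3 in BrM2. All libraries of the sub-populations were below those of Par, and the differences passed with the block only (adjusted p = 0.221 and 0.00548 in LM2, 0.116 and 0.00206 in BrM2, without and with it). NRP1, the co-receptor of class 3 semaphorins and of VEGF, had 321, 402 and 431 CPM in Par, 230, 399 and 406 in LM2 and 183, 283 and 264 in BrM2. Its BrM2 libraries were below all Par libraries, with a log2 change of -0.68 ± 0.12 with the block (adjusted p = 0.00107, and 0.164 without it). NRP1 held 91.9% ± 1.5 of the neuropilin level per kilobase in Par, 95.6% ± 1.2 in LM2 and 92.2% ± 1.2 in BrM2. PLXNA2 and PLXNC1 were the members of this group with a positive log2 change against Par in both sub-populations.

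Among the Eph receptors, EPHB3, a receptor of B-type ephrins, was the 1 tested member that fell in each sub-population, and none rose (edgeR, 6 tested). Of all genes, 4.52% fell in LM2 and 7.02% in BrM2. EPHB3 was at 6.72, 5.08 and 4.24 CPM in Par, 0.696, 0.612 and 0.766 in LM2 and 1.33, 1.32 and 1.68 in BrM2. The 3 lines did not overlap, with LM2 lowest. The fall was 7.67-fold in LM2 (log2 -2.94 ± 0.28, adjusted p = 0.000397) and 3.68-fold in BrM2 (-1.88 ± 0.27, adjusted p = 0.00201). BrM2 was above LM2 by 1.06 ± 0.28, with an adjusted p of 0.0569, and with the block of 0.0164.

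EPHA2, an Eph receptor abundant in many carcinomas, was the most abundant member of all per kilobase, at 110 ± 18.0 CPM per kb in Par, 96.6 ± 42.3 in LM2 and 157 ± 62.8 in BrM2 (SD, n = 3). Its CPM were 519, 473 and 374 in Par, 602, 302 and 296 in LM2 and 933, 421 and 594 in BrM2, with overlap between all lines. It passed in BrM2 vs LM2 with the block only (log2 0.71 ± 0.18, adjusted p = 0.0111, and 0.326 without it). EPHA2 held 82.5% ± 0.81 of the Eph level per kilobase in Par, 84.7% ± 2.1 in LM2 and 90.5% ± 1.2 in BrM2. EPHB4, the receptor of EFNB2, was at 105, 76.2 and 60.5 CPM in Par, 71.1, 43.2 and 38.2 in LM2 and 80.2, 33.8 and 46.9 in BrM2, lower than Par at each replicate number in both and past the threshold with the block only (edgeR, adjusted p = 0.395 and 0.00691 in LM2, 0.405 and 0.00845 in BrM2, without and with it).

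EPHA5, an Eph receptor of the nervous system, had 1.05, 1.94 and 2.28 CPM in Par, 1.14, 3.35 and 4.71 in LM2 and 0.443, 1.24 and 1.05 in BrM2. The lines overlapped, and at each replicate number BrM2 was the lowest and LM2 the highest. BrM2 differed from LM2 with the block (log2 -1.70 ± 0.28, adjusted p = 0.00102, and 0.117 without it). Both sub-populations differed from Par with the block only. The log2 change was 0.74 ± 0.26 in LM2 (adjusted p = 0.0451, and 0.499 without it) and -0.96 ± 0.30 in BrM2 (adjusted p = 0.0239, and 0.395 without it). EPHB2 passed with the block in BrM2 vs Par only, and EPHA4 in no comparison.

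Of the 6 tested ephrins none was called in LM2 vs Par and 1 fell in BrM2, EFNB2, the ligand of EPHB4 in blood vessels. Of all genes, 8.69% were called in LM2 vs Par and 7.02% fell in BrM2. With the block EFNA1 alone fell in LM2, and EFNB3 rose in BrM2, beside 19.1% and 19.5% of all genes. EFNB2 was at 31.0, 33.4 and 28.8 CPM in Par, 23.1, 25.4 and 27.2 in LM2 and 17.1, 18.1 and 16.0 in BrM2. The 3 lines did not overlap. Its log2 change was -0.87 ± 0.17 in BrM2 (adjusted p = 0.0107, and 0.093 with no filter on low counts), -0.30 ± 0.17 in LM2 (adjusted p = 0.393) and -0.56 ± 0.17 between BrM2 and LM2 (adjusted p = 0.0882, and 0.00665 with the block). A gene on the opposite strand, counted at 10.2 reads in the mean, covers 36.4% of the exons of EFNB2.

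EFNA1, an inflammation-induced ephrin and a ligand of EPHA2, was lower in LM2 than in BrM2. It had 4.31, 4.31 and 3.69 CPM in Par, 2.68, 0.979 and 1.38 in LM2 and 5.76, 3.35 and 4.84 in BrM2. LM2 lay below both other lines in all libraries. The difference between BrM2 and LM2 was 1.47 ± 0.38 on the log2 scale, barely past the threshold (adjusted p = 0.0498). That call was lost with the size factors of DESeq2 (adjusted p = 0.056) and with filterByExpr (0.051), and it held in 1 of the 9 fits that left out a library. The difference of LM2 to Par of -1.30 ± 0.38 passed with the block only (adjusted p = 0.0749 without it and 0.00305 with it). EFNB2 held 31.7% ± 3.6 of the ephrin level per kilobase in Par and 18.8% ± 1.8 in BrM2, and EFNA1 held 9.65% ± 0.74 in Par, 4.40% ± 1.8 in LM2 and 11.7% ± 2.5 in BrM2. EFNA4 and EFNA5 were called in no comparison with either model, and 10.7% of the 50-base stretches of EFNA4 occur in another gene, so its reads may be split.

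NTN4, a netrin of basement membranes that binds laminin and neogenin, rose in BrM2. It was at 17.8, 23.6 and 25.4 CPM in Par, 12.4, 18.9 and 18.6 in LM2 and 36.6, 46.5 and 50.3 in BrM2. The BrM2 libraries were above those of both other lines, which overlapped each other. The increase was 2-fold over Par (log2 1 ± 0.25, adjusted p = 0.0278) and 2.67-fold over LM2 (1.42 ± 0.25, adjusted p = 0.00851). LM2 was below Par with the block only (-0.43 ± 0.12, adjusted p = 0.0198, and 0.412 without it). NTN4 made up 98.0% to 99.3% of the netrin level per kilobase in the mean of each line, and NTN1, NTN3 and NTN5 fell below the filter.

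The netrin receptors of the list were scarce. UNC5B, a receptor that mediates repulsion, had 2.21, 1.31 and 1.18 CPM in Par, 0.646, 0.286 and 0.153 in LM2 and 0.369, 0.397 and 0.0479 in BrM2. Both sub-populations were below Par in all libraries, with 1 BrM2 library at 1 read. The log2 change was -2.53 ± 0.67 in BrM2 (adjusted p = 0.0383) and -2.13 ± 0.63 in LM2 (adjusted p = 0.0762, and 0.00238 with the block). The level summed over UNC5A to UNC5D and DCC was 0.236 ± 0.0763 CPM per kb in Par, 0.0977 ± 0.0452 in LM2 and 0.0659 ± 0.0372 in BrM2, against 5.17, 3.88 and 10.3 CPM per kb of netrins.

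**Figure D4:**
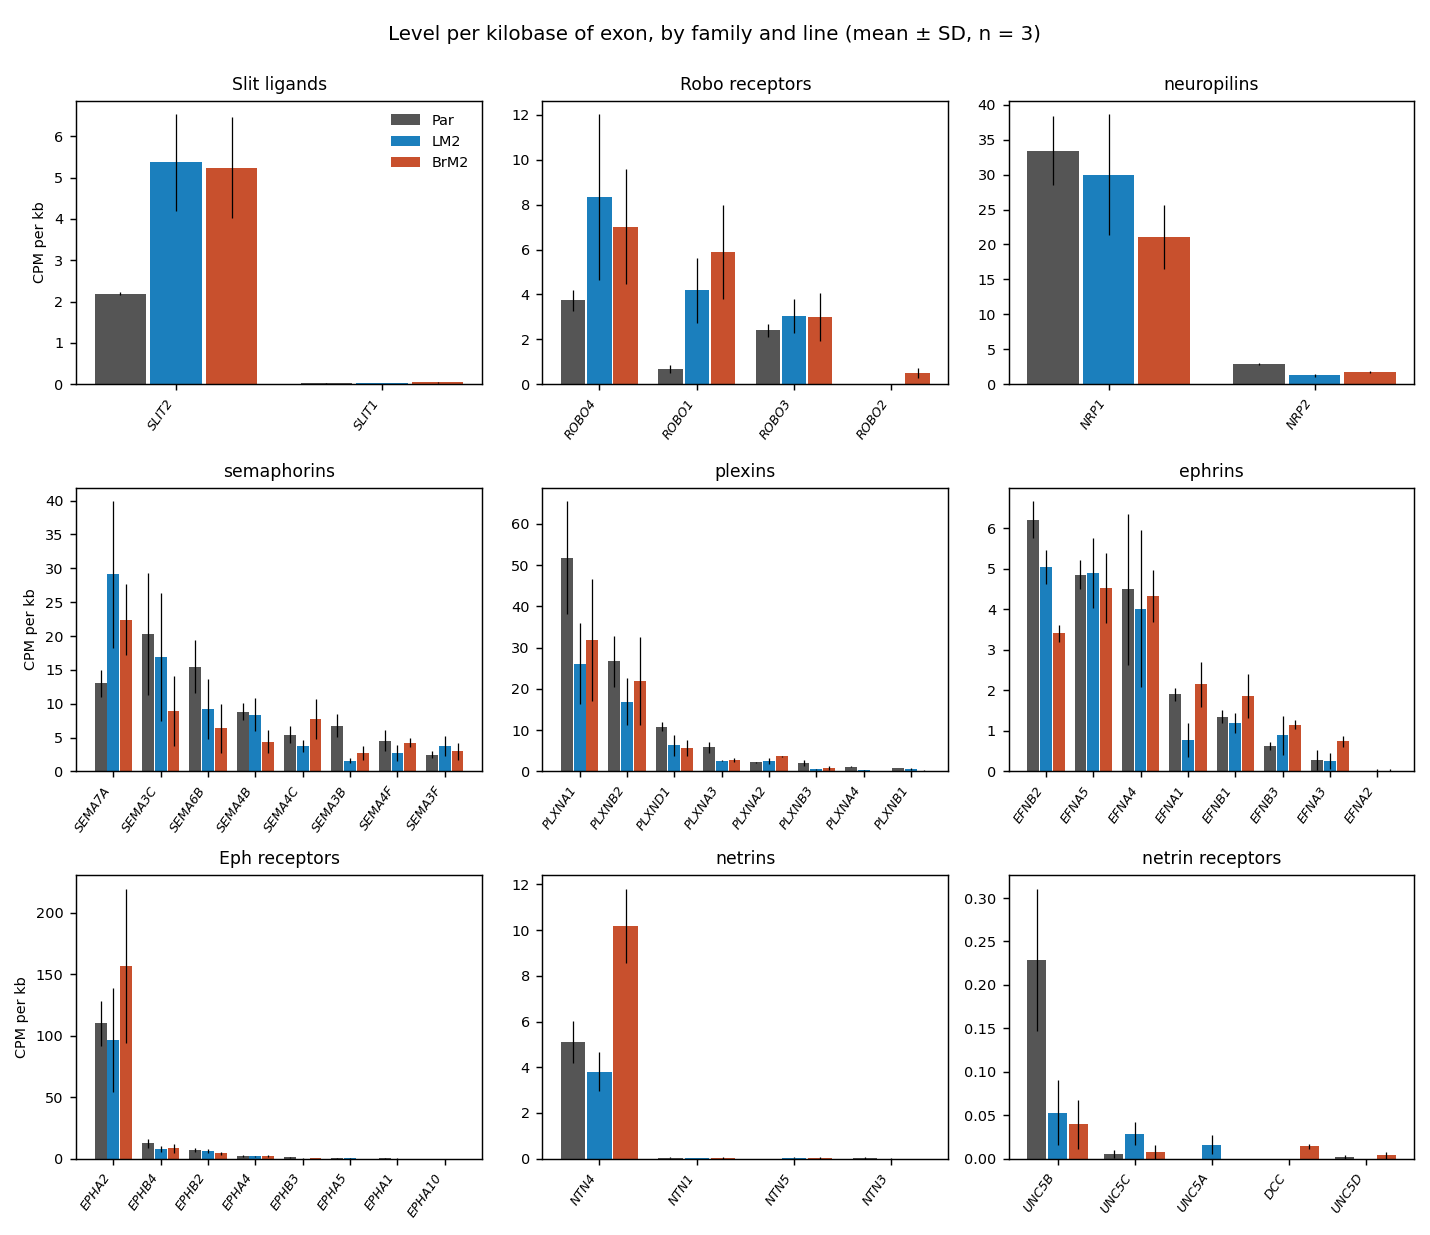
Level per kilobase of exon (CPM per kb, vertical, mean ± SD of 3 libraries) of up to 8 members of each family, ordered by their highest line mean, in Par, LM2 and BrM2. EPHA2 and PLXNA1 are the highest, NTN4 and SLIT2 dominate their families, and the netrin receptors lie far below the netrins.

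The 22 members below the filter had too few reads for the main test, and without a filter 67 members could be tested (34056 genes), EPHA8 and SLIT3 having 0 reads everywhere. In this test 16 passed in LM2 vs Par, 6 higher and 10 lower, beside 4.4% of all genes (1.95% and 2.45%). In BrM2 vs Par 19 passed, 9 higher and 10 lower, beside 6.36% (3% and 3.36%), and in BrM2 vs LM2 10 passed, 8 higher and 2 lower, beside 4.25% (2.27% and 1.98%). The low members that passed were Eph receptors. EPHA6 had 0, 1 and 0 reads in Par, 1, 5 and 2 in LM2 and 17, 28 and 15 in BrM2, so that BrM2 was at least 7.63-fold above the floor of Par (adjusted p = 1.6e-05). EPHA3 had 4, 16 and 9 reads in BrM2 and 0 in the other 6 libraries, at least 3.41-fold above the floor of Par (adjusted p = 0.0013) and 3.71-fold above that of LM2 (adjusted p = 0.0015). EPHA7 had 1, 2 and 4 reads in Par, 0, 0 and 1 in LM2 and 4, 23 and 24 in BrM2 (adjusted p = 0.005 against Par and 1e-04 against LM2).

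EPHA3, EPHA6 and EPHA7 are A-type receptors known from the developing nervous system, and their highest counts here were 16, 28 and 24 reads. DCC, the attractive netrin receptor, had 2, 5 and 4 reads in BrM2 and 0 in all Par and LM2 libraries, which missed the threshold (adjusted p = 0.062 against Par). EPHB6, a receptor without kinase activity, had 12, 8 and 8 reads in Par, 0 in all 3 LM2 libraries and 5, 1 and 2 in BrM2, so that LM2 was at least 3.45-fold lower than Par (adjusted p = 0.0015). EPHA10 had 18, 18 and 10 reads in Par, 6, 1 and 3 in LM2 and 13, 14 and 14 in BrM2 (adjusted p = 0.024 for LM2 against Par and 0.025 for BrM2 against LM2). EFNA3 shares 41.4% of its 50-base stretches with another gene, and EPHA6 shares 11.1% with others, so these counts are uncertain.

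**Figure D5:**
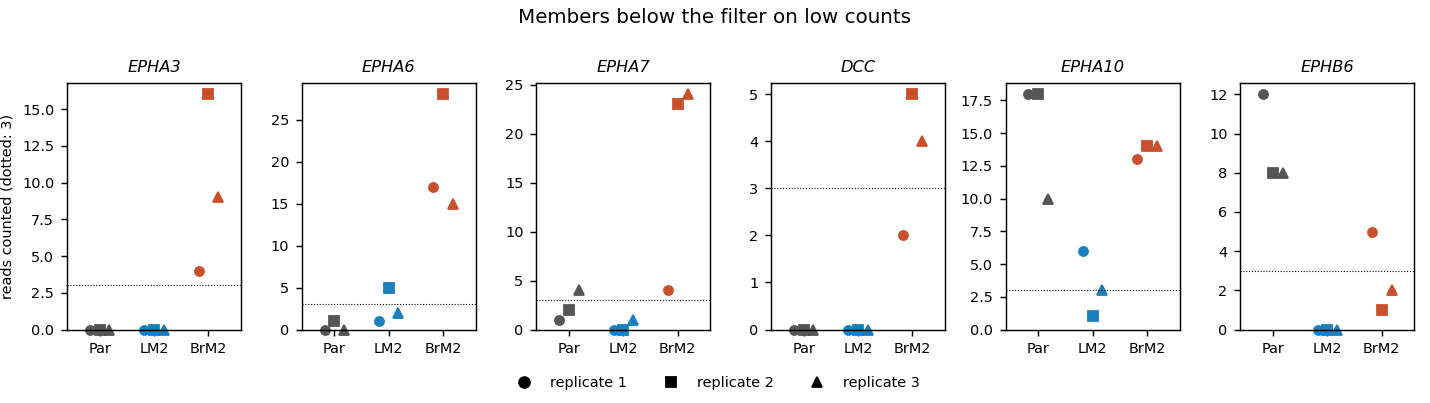
Reads counted per library (vertical, a different range in each panel) for 6 members below the filter, by line and replicate, with the floor of 3 reads as a dotted line. EPHA3, EPHA6, EPHA7 and DCC have their highest counts in BrM2, and EPHA10 and EPHB6 their lowest in LM2.

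Of the other genes of the pathway, 83 were tested, 22 further cues and co-receptors and 61 genes that relay the signal. In LM2 vs Par 6 rose and 5 fell, in BrM2 vs Par 11 rose and 10 fell, and in BrM2 vs LM2 8 rose and 4 fell (edgeR), beside 8.69%, 13.3% and 8.1% of all genes called. With the block 43, 50 and 37 of the 83 passed, beside 34.5%, 42.7% and 37.5%. The cues and co-receptors had medians of -0.09, 0.24 and 0.40 on the log2 scale in these 3 comparisons and the relay genes -0.02, -0.17 and -0.11.

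In LM2, the largest rises over Par were those of WNT5A, a Wnt ligand, SHH, a hedgehog ligand, and BOC, a hedgehog co-receptor. WNT5A was counted with 0, 3 and 7 reads in Par and 17, 30 and 44 in LM2 (adjusted p = 0.030). SHH rose by 1.73 ± 0.25 on the log2 scale, to 15.7 ± 2.67 CPM from 4.75 ± 0.626 (SD, n = 3, adjusted p = 0.0029), and BOC by 1.63 ± 0.33 (adjusted p = 0.016). The largest falls were those of the chemokine receptor CXCR4, from 4.02 ± 1.41 to 0.307 ± 0.0594 CPM (log2 -3.67 ± 0.34, adjusted p = 0.00037), of MMP24 (-1.82 ± 0.39, adjusted p = 0.022) and of the hedgehog co-receptor CDON (-1.38 ± 0.26, adjusted p = 0.012).

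In BrM2 DSCAM, a cell adhesion molecule that can act as a netrin receptor, had 80, 159 and 144 reads against 1, 1 and 2 in Par and 1, 0 and 1 in LM2. It was at least 47.1-fold above the floor of Par (adjusted p = 6.4e-05) and 51.3-fold above that of LM2 (adjusted p = 7.3e-05). SRGAP3, a GTPase-activating protein that binds Robo, had 25, 36 and 48 reads in BrM2, at least 13.6-fold above the floor of Par (adjusted p = 0.00029) and 14.8-fold above that of LM2 (adjusted p = 0.00052). WNT5A was counted with 47, 189 and 165 reads in BrM2 (adjusted p = 0.0012 against Par). DSCAM, SRGAP3 and WNT5A passed the filter on low counts through BrM2 only, and passing in this way favours a difference between the lines. GPC1, a heparan sulphate proteoglycan that binds Slit, fell by 2.44 ± 0.59 on the log2 scale against Par (adjusted p = 0.026), RHOD fell by 2.35 ± 0.58 (adjusted p = 0.029) and SHH fell by 2.23 ± 0.27 (adjusted p = 0.00086).

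Between BrM2 and LM2, CXCR4 was 130-fold higher in BrM2, at 40.9 ± 7.0 against 0.307 ± 0.0594 CPM (adjusted p = 4.5e-05). SHH was 15.5-fold lower (adjusted p = 9.9e-05), VAV2 2.61-fold lower (adjusted p = 0.0068) and FARP1 2.27-fold lower (adjusted p = 0.0036). NEO1, which encodes the netrin receptor neogenin and was singled out after its values were seen, stood at 22.4, 18.1 and 20.6 CPM in Par, 21.9, 17.3 and 19.5 in LM2 and 82.8, 85.2 and 87.7 in BrM2. The BrM2 libraries lay far above both other lines, by 2.06 ± 0.18 over Par (adjusted p = 0.00021) and by 2.12 ± 0.18 over LM2 (adjusted p = 0.00026) on the log2 scale.

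The change of each tested member was set beside the median change of the other tested genes that start within 5 Mb of it. These medians ran from -0.41 to 0.76 on the log2 scale in LM2 vs Par, from -0.62 to 0.51 in BrM2 vs Par and from -0.98 to 0.45 in BrM2 vs LM2. Around SEMA4B (chromosome 15, 39 genes) the median was 0.76 for LM2 against Par and -0.98 between BrM2 and LM2, where SEMA4B itself had -0.07 and -0.94. Around SEMA7A on the same chromosome (65 genes) it was 0.42 in LM2 vs Par, against 1.16 for the gene. Around EFNB2 (chromosome 13, 18 genes) it was 0.73 in LM2 vs Par, where EFNB2 had -0.30.

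Around PLXNA4 (chromosome 7, 45 genes) the median was -0.31 in LM2 and -0.48 in BrM2, in the direction of the gene, which had -2.18 and -3.25. Around SEMA4D (chromosome 9, 30 genes) the median for LM2 was 0.07 and that for BrM2 -0.39, and around NTN4 (chromosome 12, 32 genes) it was 0.35 in BrM2. The neighbours of SLIT2 (chromosome 4, 19 genes) had -0.07 and 0.01, and those of ROBO1 (chromosome 3, 5 genes) -0.21 and -0.35, against the direction of the gene. Their part in the change of a member was not tested.

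The labels give the cells as breast epithelial. Of 20 breast epithelial markers, 10 were over the floor in all libraries of Par, 12 in LM2 and 10 in BrM2, with summed CPM of 1560 to 2860, 751 to 1930 and 835 to 1820, and ELF5 and OVOL1 at or under the floor throughout. Of 14 mesenchymal and claudin-low markers, 13, 12 and 13 were over it, and TWIST1 was not. Of 11 neural and glial markers, AQP4, OLIG2, RBFOX3, SOX10 and STMN2 were at or under the floor in all 3 lines, and the summed CPM of the list was 186 to 199 in Par, 128 to 134 in LM2 and 150 to 162 in BrM2. Most of this sum was MBP, at 161 to 176, 99 to 107 and 137 to 148 CPM. SNAP25 was at 0.525 to 1.4 CPM in Par, 3.38 to 7.55 in LM2 and 0.369 to 0.397 in BrM2. Of 8 fibroblast markers, 6, 5 and 4 were over the floor in all libraries of Par, LM2 and BrM2, with summed CPM of 56.7 to 75.2, 47.5 to 74.4 and 15.6 to 25.5. DCN was at or under it in all lines, COL1A1 was at 4.83 to 7.93 CPM in Par and 35.1 to 54.4 in LM2, COL1A2 was at 22.4 to 32.8 in Par and at or under the floor in BrM2, and PDGFRB was at 26.6 to 31.2 in Par and 3.88 to 10.4 in the sub-populations. THY1 went the other way, from at or under the floor in Par to 2.92 to 3.4 CPM in BrM2. Of 9 leukocyte markers, 4, 4 and 3 were over the floor, with summed CPM of 10 to 19.1, 6.82 to 13.6 and 4.19 to 7.38. CD3E and CD68 were at or under it in all lines, and CSF1R was at 5.58 to 12.5 CPM in Par and 1.06 to 1.4 in BrM2. CD8A was higher in BrM2, at 1.94 to 2.73 CPM against 1.47 to 1.69 in Par. The part of these markers in the results was not tested. Fewer cells of a state and less RNA per cell cannot be told apart in bulk RNA.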

How the data were processed

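RNA was taken from 3 cultures each of Par, LM2 and BrM2, and stranded mRNA libraries were sequenced in pairs. The authors aligned the reads with STAR 2.7.0 to hg38 and deposited raw read counts per gene, which were used here as deposited; the strand that was counted is not given in the sources used here. A second deposited table holds the authors' own log2 fold changes and adjusted p-values and was not used. Samples were grouped by their labels.

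Of 58887 rows, 3 repeated identifiers were dropped. Genes were kept by a filter written after HTSFilter, which tried 100 thresholds from 1 to 200 and chose 47.15 on the largest normalised count, leaving 13055 genes. All 9 libraries were fitted with the quasi-likelihood test of edgeR 4.0.16 (R 4.3.3, TMM, 2-sided) with the lines as groups, and p-values were adjusted by Benjamini-Hochberg over all genes tested, with a threshold of 0.05. The SE is the log2 fold change divided by the square root of its F statistic. Alternatives were the replicate number as a block, the size factors of DESeq2, DESeq2 1.42.0, no filter, edgeR's filterByExpr and leaving out libraries. The code was tested on simulated data.

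The deviations of same-numbered libraries from their line means correlated at 0.23 to 0.9 in all 9 pairs. Pairs with different numbers ranged from -0.88 to 0.8. Replicates 2 and 3 of different lines correlated at 0.39 to 0.8, and BrM2 replicate 2 correlated more with Par replicate 3 (0.77) than with Par replicate 2 (0.23), so the numbers set replicate 1 apart more clearly than they separate 2 from 3. The methods state that the replicates are passages. Exon length and GC content came from GENCODE v44 on GRCh37, used without its coordinates, and promoters and positions from RefSeq GRCh38.p14. The length is that of all exons of a gene joined, and the GC content is that of its longest transcript. Per-library values are given for members called in any comparison, for those called only with the block at a log2 change of at least 1 in size, and for the 10 most abundant per kilobase. Of the other pathway genes, the 3 largest rises and 3 largest falls called in each comparison are named. The members and lists were chosen with earlier results of these data known. Figures were drawn with matplotlib 3.10.9. An item withheld from this text is not reported here.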

Additional observations from a re-analysis of the deposited data

Results flagged for a closer look

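For 6 members the change from Par differed between the sub-populations by the direct test of BrM2 against LM2 in edgeR, which is why they are listed here. On the log2 scale, ROBO2 was higher in BrM2 by 4.73 (adjusted p = 0.00185), SEMA3G by 1.68 (0.0413), EFNA1 by 1.47 (0.0498) and NTN4 by 1.42 (0.00851). PLXNB1 differed by -1.37 (0.0275) and PLXNA4 by -1.07 (0.0271). All 6 differed in the same direction at each of the 3 replicate numbers. They were called from these same libraries, which makes that likely, so it adds no support. ROBO2 and SEMA3G had passed the filter on low counts through BrM2 only. Leaving out each of the 9 libraries in turn, the calls of ROBO2 and NTN4 held in all 9 fits, those of PLXNA4, PLXNB1 and SEMA3G in 3 and that of EFNA1 in 1. The PLXNA4 call was also lost with no filter on low counts (adjusted p = 0.082), and the EFNA1 call with the size factors of DESeq2 (0.056) and with filterByExpr (0.051).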

How the results depend on the processing

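The sources used here do not state that the replicate numbers pair the libraries, and numbers 2 and 3 were not clearly separated. The replicate block raised the members called from 12 to 27 (LM2 vs Par), from 16 to 34 (BrM2 vs Par) and from 6 to 24 (BrM2 vs LM2). The common dispersion was 0.021 with it against 0.11. For the other pathway genes the block gave 43, 50 and 37 calls against 11, 21 and 12. DESeq2 called 12 members in BrM2 vs LM2 and 17 other pathway genes in LM2 vs Par. With no filter on low counts 10 members were called in BrM2 vs LM2. The cause was not tested.

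Leaving out libraries without the block gave 0 to 27 members for LM2 against Par, 2 to 32 for BrM2 against Par and 0 to 21 for BrM2 against LM2, and 1 to 41, 3 to 49 and 3 to 32 other pathway genes. With the replicate block, an alternative chosen after seeing the data left out replicate numbers 1, 2 and 3 in turn. Where the count moved by more than 1.5 times, it gave 24 and 26 members in LM2 vs Par (without 1 and 2), then 30, 34 and 28 for BrM2 against Par, and 18, 27 and 11 for BrM2 against LM2. For the other pathway genes it gave 38, 41 and 25, then 47, 47 and 34, and 28 and 36 (without 1 and 2). Without the block, the lowest counts of members came without replicate 2, and in BrM2 vs LM2 also without replicate 3. The highest counts without the block came without replicate 1, at 27, 32 and 21 members. Without replicate 2, edgeR called 0 members for LM2 against Par and 0 between BrM2 and LM2, where 11 and 8 had an unadjusted p under 0.05, and without replicate 3 it called 0 in BrM2 vs LM2, where 5 did. Without Par replicate 2 or LM2 replicate 2 there were 7 and 6 members in LM2 vs Par. Without BrM2 replicate 3 there were 8 in BrM2 vs Par and 2 in BrM2 vs LM2. No member that was called changed direction under any of these settings. Members with few reads are limited by depth, and a difference under the floor of 3 reads was not detectable.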
